A study of Mus musculus with 12 samples.

Results

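The mRNAs of 10 genes that carry the IL-6, IL-10 and colony-stimulating cytokine signals of dendritic cells (DCs) were followed over 12 single-colour mouse arrays. The genes were Il6, Lif and Osm, which encode cytokines that signal through gp130, Il10 and Il10ra, the colony-stimulating factor genes Csf1, Csf2 and Csf3, and Il15 and Ifnb1. All array features whose deposited accession belongs to 1 of these genes were taken, which gave 16 of the 56605 features on the array. Il6, Osm, Il10ra and Il15 had 2 features each, Csf1 had 3, and the other 5 genes had 1. The DCs were grown from the bone marrow of female mice with recombinant GM-CSF at 2 ng/ml and IL-4 at 4 ng/ml, were harvested on day 7 and were then given LPS at 1 μg/ml for 24 h in every group. DCYoung came from mice of 2 months with no agent, DCDysbiotic from mice of 2 months given an antibiotic cocktail, DCOld from mice of 24 months with no agent, and DCOld-LP from mice of 24 months given LP, which the study names as Lactobacillus plantarum. There were 3 arrays per group, lettered A, B and C. Each array held RNA of pooled mice, and no culture without LPS was among the arrays.

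DCs sense LPS, which comes from the outer membrane of gram-negative bacteria, through TLR4, and the transcription factors NF-κB and AP-1 that it activates switch on cytokine genes. IL-6, LIF and oncostatin M (Osm) act through receptors that share the gp130 chain and activate STAT3. IL-10 also acts through STAT3 and restrains the inflammatory output of DCs and macrophages. GM-CSF (Csf2), M-CSF (Csf1) and G-CSF (Csf3) drive the growth and differentiation of myeloid cells, and GM-CSF is the factor with which the DCs were grown. IL-15 sustains NK cells and memory T cells, and interferon beta (Ifnb1) switches on antiviral genes.

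For 5 of the 10 genes the RefSeq promoter table held a window around the start site (GRCm38.p6), and the 250 bases before that start are shown for the 3 of them that the results below turn on. Il6 is on the plus strand at chr5:30012864-30013113, Csf2 on the minus strand at chr11:54249900-54250149 and Csf1 on the minus strand at chr3:107760470-107760719. Capitals mark matches to TGACTCA (an AP-1 site), to the κB consensus and to GAAANNGAA (an interferon response element), on either strand, and TATAAA was searched as well.
Il6: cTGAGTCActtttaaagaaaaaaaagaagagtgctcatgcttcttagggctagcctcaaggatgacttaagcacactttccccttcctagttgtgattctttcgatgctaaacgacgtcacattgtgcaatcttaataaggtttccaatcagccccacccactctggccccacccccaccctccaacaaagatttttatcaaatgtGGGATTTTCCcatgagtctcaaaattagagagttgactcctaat
Csf2: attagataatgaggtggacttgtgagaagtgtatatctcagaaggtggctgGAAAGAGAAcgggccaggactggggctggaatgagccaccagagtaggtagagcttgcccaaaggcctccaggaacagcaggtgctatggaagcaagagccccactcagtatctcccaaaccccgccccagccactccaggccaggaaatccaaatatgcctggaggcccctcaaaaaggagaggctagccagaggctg
Csf1: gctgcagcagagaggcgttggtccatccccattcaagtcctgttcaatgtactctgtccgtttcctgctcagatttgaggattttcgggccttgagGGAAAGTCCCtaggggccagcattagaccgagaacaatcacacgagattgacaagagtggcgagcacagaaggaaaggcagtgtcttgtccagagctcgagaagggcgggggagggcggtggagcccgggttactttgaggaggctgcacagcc
The κB consensus was matched once in the windows of Il6, Lif, Csf1 and Ifnb1 and not in that of Csf2. Of all 32851 promoter windows, 8.46% held it. TGACTCA was matched in the windows of Il6 and Lif, and 5.2% of all windows held it. GAAANNGAA was matched in that of Csf2 alone among the 5, with 8.56% of all windows. TATAAA was matched 2 times in the window of Ifnb1, with 13.6% of all windows. The windows follow the start sites in the RefSeq table, and for Csf2 that site may not be the main one, so neither its sequence nor the missing κB match describes the promoter in use. A match describes these letters only, and a window without a match says nothing about the factor. Il10, Il10ra, Csf3, Osm and Il15 had no entry.

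Values below are log2 signals after quantile normalization, each gene is read at its brightest feature unless stated otherwise, and a feature was called changed where its absolute log2 difference was at least 0.5 and its limma p, adjusted by Benjamini-Hochberg over all features, was 0.05 or less. Arrays A and B of all 4 groups lay on the first slide, and the C arrays lay on the second slide (DCYoung and DCDysbiotic) and the third (DCOld and DCOld-LP). For C, a difference of DCOld or DCOld-LP from DCYoung is thus also one between slides, and age and slide cannot be told apart there. On the A and B arrays 61.2% to 66.4% of spots were well above background, against 37.3% to 46% on the C arrays, and DCOld C was the dimmest. Over 284 features that are printed more than once, A and B differed by a median of 0.0659 in DCYoung, 0.11 in DCDysbiotic, 0.0688 in DCOld and 0.0841 in DCOld-LP, and repeated spots within an array by 0.0556, 0.0362, 0.04 and 0.0632 in the same order. A and C differed by 0.549 to 0.702. A and B were thus far closer to each other than to C, and in DCYoung and DCOld-LP nearly as close as repeated spots. The study describes its array data as independent sets, each from a pool of mice. Whether A and B were separate cultures is not given in the labels, and p-values on the first slide may measure technical spread only. The markers of DCs were well above background for 11 or 12 of 12 on every array. T cell (8 or 9 of 9), mast cell and basophil (10 or 11 of 11) and granulocyte precursor markers (9 to 11 of 11) were also above background.

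None of the 16 features was called in any comparison when all 12 arrays were fitted. In DCOld against DCYoung 0.62% of all features were called, in DCDysbiotic against DCYoung 0.344%, in DCOld-LP against DCOld 0.348% and in DCOld-LP against DCYoung 0%. An unadjusted p of at most 0.05 was reached by 2 of the 16 in DCOld against DCYoung (6.05% of all features), by 1 in DCDysbiotic against DCYoung (3.9%), by 3 in DCOld-LP against DCOld (5.87%) and by 0 in DCOld-LP against DCYoung (1.13%). The groups did not overlap for 3, 2, 4 and 1 of the 16 in the same order, where 9.65%, 9.87%, 9.4% and 4.75% of all features did not. Within the first slide, with 2 arrays per group, 1 of the 16 was called in DCOld against DCYoung (9.17% of all features), 1 in DCDysbiotic against DCYoung (6.14%), 6 in DCOld-LP against DCOld (8.24%) and 0 in DCOld-LP against DCYoung (0.0389%). The 6 belonged to Csf2, Il6, Csf1 and Il15. The median difference over the 16 features was 0.31, -0.03, 0.06 and 0.1 in the 4 comparisons, and that over all features lay between -0.02 and 0.005.

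**Figure D1:**
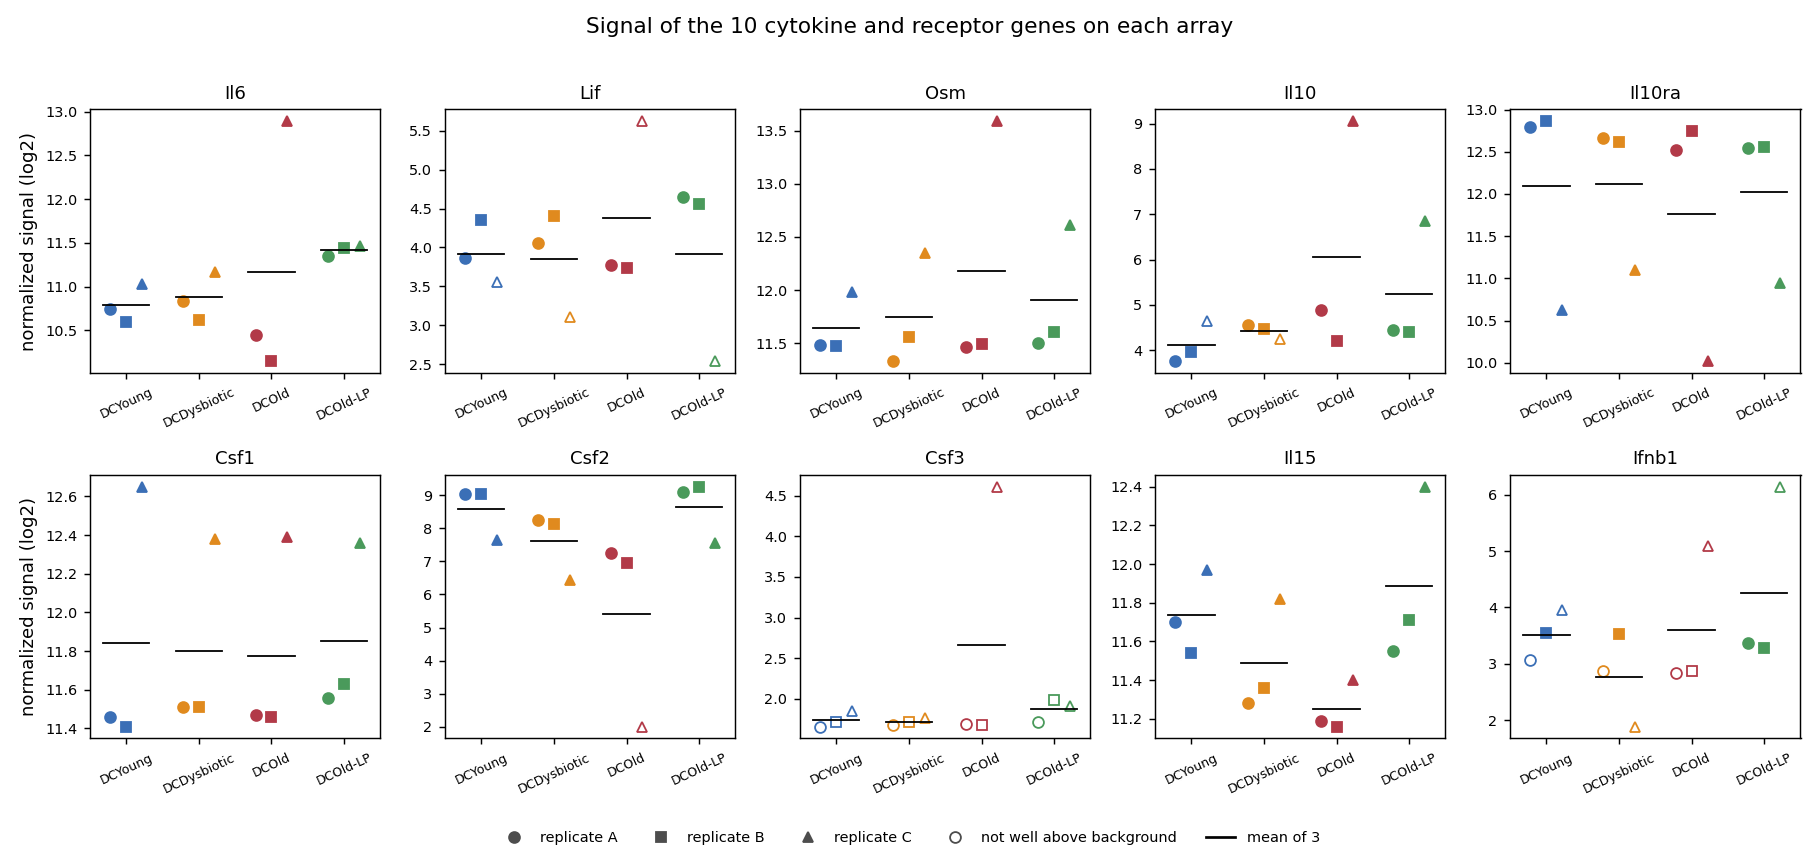
Normalized signal (log2, vertical axis) of the 10 genes at their brightest feature on each array, by group. Filled symbols are well above background, open symbols are not, and bars are means of 3 arrays. Csf2 was lowest in DCOld on the A and B arrays, Csf3 was not above background on any array, and DCOld C lay far from DCOld A and B for Il6, Osm and Il10.

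The gene with the largest difference was Csf2, which encodes GM-CSF. Its signals were 9.04, 9.04 and 7.64 on DCYoung A, B and C, 8.24, 8.14 and 6.42 in DCDysbiotic, 7.24, 6.96 and 2.01 in DCOld, and 9.09, 9.25 and 7.54 in DCOld-LP. DCOld lay below DCYoung and DCOld-LP with no overlap and overlapped with DCDysbiotic. DCOld C was not well above background, and the dimmest level called above background on that array was 6.65. On A and B the order was the same, with DCOld lowest, DCDysbiotic next, and DCYoung and DCOld-LP above both. On C the order of DCOld and DCDysbiotic was not measured, since that level lies above the signal of DCDysbiotic C. The differences of DCOld from DCYoung were -1.80 and -2.08 for A and B, and for C, across slides, DCYoung exceeded DCOld by at least 0.99. DCOld-LP lay above DCOld by 1.85 and 2.29 for A and B and by at least 0.89 for C. DCDysbiotic differed from DCYoung by -0.81, -0.90 and -1.22.

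On all 12 arrays Csf2 was 3.17 lower in DCOld than in DCYoung (SE 1.23, unadjusted p = 0.0274, adjusted p = 0.648, limma), and this did not pass the test. DCOld-LP exceeded DCOld by 3.22 (SE 1.23, adjusted p = 0.694, limma) and differed from DCYoung by 0.05 (SE 1.23). DCDysbiotic was 0.97 below DCYoung (SE 1.23, adjusted p = 1, limma). Both differences from DCOld include the reading of DCOld C that is below background, so their size is not a measured one. Without DCOld C the same differences were -1.47 and 1.53 (adjusted p = 0.794 and 0.787, limma). With the slide as a block, DCOld-LP against DCOld was called for Csf2 (3.22, adjusted p = 0.0287, limma), as were 3.29% of all features, and this fit includes the same reading. In that fit DCOld against DCYoung was -2.58 and was not called (adjusted p = 0.109, limma). Within the first slide Csf2 was called in 3 comparisons. It was 3.83-fold lower in DCOld than in DCYoung (log2 -1.94, SE 0.128, adjusted p = 0.000764, limma), 1.8-fold lower in DCDysbiotic than in DCYoung (log2 -0.85, SE 0.128, adjusted p = 0.0187, limma) and 4.19-fold higher in DCOld-LP than in DCOld (log2 2.07, SE 0.128, adjusted p = 0.000771, limma). DCOld-LP and DCYoung differed there by 0.13 (SE 0.128, adjusted p = 0.736, limma).

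**Figure D2:**
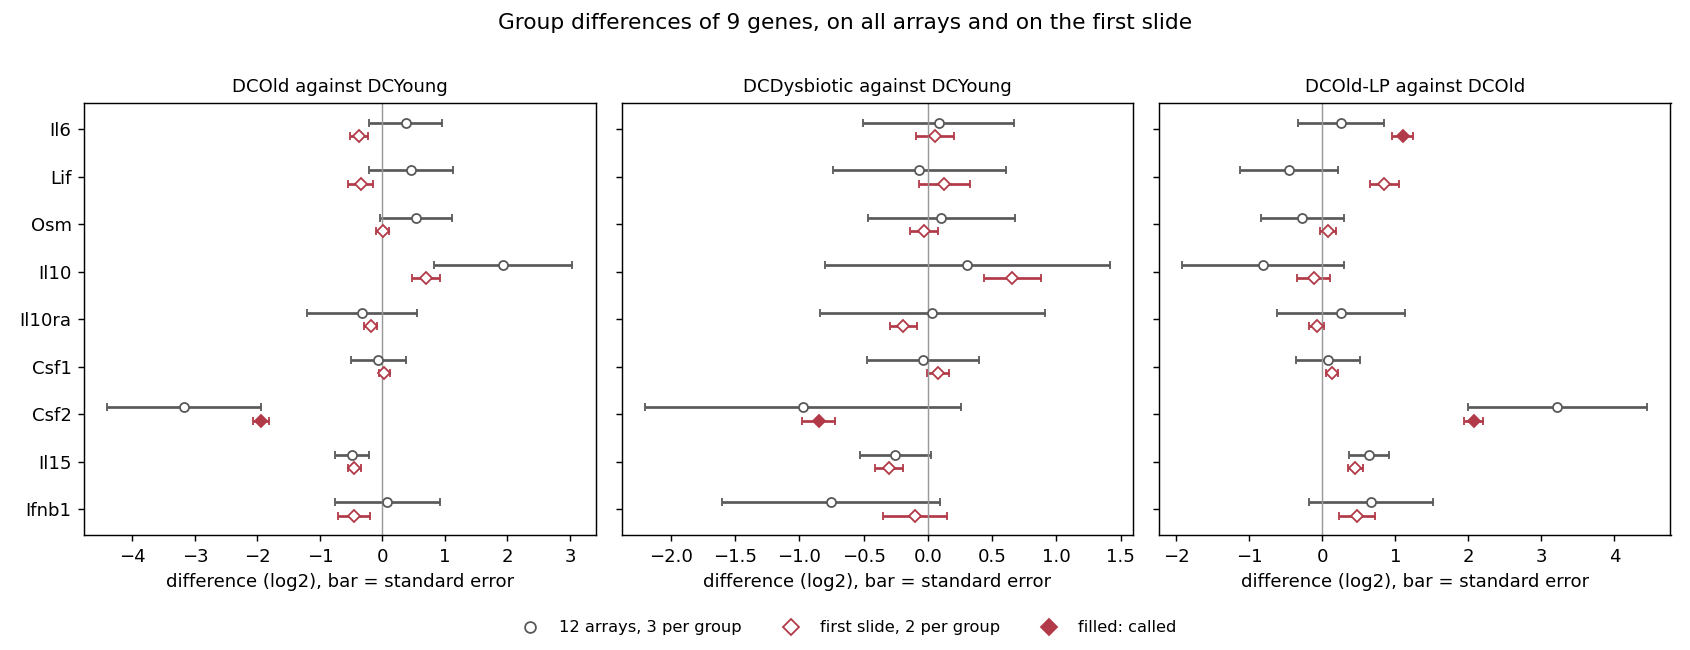
Difference in log2 signal between groups (horizontal axis) for 9 of the genes at their brightest feature, with standard errors as bars. Csf3 is left out because it was not above background on any array. Circles are fits to all 12 arrays and diamonds fits to the first slide with 2 arrays per group, filled where called. Csf2 was called in all 3 comparisons on the first slide and Il6 in DCOld-LP against DCOld.

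Activated T cells and mast cells are known sources of GM-CSF besides myeloid cells. On all arrays no T cell marker and no mast cell or basophil marker was called in any comparison. Their summed signals, and those of other cells, are given here beside the Csf2 result. The summed normalized signal of 9 T cell markers was 22300 to 27000 in DCOld, against 36000 to 56200 in DCYoung, 33300 to 57900 in DCDysbiotic and 35400 to 46900 in DCOld-LP, so that DCOld did not overlap with any other group. With the letter as a block none of the 9 was called in any comparison either. Cd4 and Il7r had near-equal means in DCYoung (9.29 and 13.52) and DCOld (9.33 and 13.51). Within the first slide 6 of the 9 were called lower in DCOld than in DCYoung and 5 higher in DCOld-LP than in DCOld. Among them was Cd3g, a chain of the T cell receptor complex (-1.40 and 1.33). Of all features 9.17% and 8.24% were called there, in either direction. The summed signal of 11 mast cell and basophil markers was 16100 and 14600 in DCOld A and B against 24600 and 25500 in DCYoung A and B, and 64400 in DCOld C against 49700 in DCYoung C. The 11 granulocyte precursor markers summed to 11200 and 11500 in DCOld A and B, 28400 and 27000 in DCYoung A and B, and 63600 in DCOld C. The 11 did not move together. On all arrays 1 was called higher in DCOld than in DCYoung and 0 lower, and within the first slide 1 was called higher and 9 lower. Camp had means of 7.44 in DCYoung, 9.90 in DCDysbiotic, 10.15 in DCOld and 8.12 in DCOld-LP. The mast cell and granulocyte precursor sums were higher on C than on A and B in every group, and highest on DCOld C. Csf2 was not above background on that array, so its level there was not measured. Over 8 erythroid and megakaryocyte markers the sums were 79100 to 117000 in DCOld and 82200 to 115000 in DCDysbiotic, against 55600 to 73900 in DCYoung and 59600 to 79900 in DCOld-LP. The 7 B cell markers summed to 3160 and 3340 in DCOld A and B and to 6150 and 5960 in DCYoung A and B, but to 16700 in DCOld C with 4 of the 7 above background. The 6 NK cell markers summed to 10600 and 10500 in DCOld A and B and to 19800 and 19600 in DCYoung A and B. The part of these cells in the Csf2 result was not tested, and in bulk RNA fewer cells of a type and less RNA per cell cannot be told apart.

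Genes of GM-CSF and M-CSF reception were bright in all groups. Over the 16 other genes of this pathway, none was called on all arrays, 3 had an unadjusted p of at most 0.05 toward lower levels in DCOld than in DCYoung, and 3 toward higher levels in DCOld-LP than in DCOld. Of all features 6.05% and 5.87% reached that p, in either direction. The median difference of the 16 genes was -0.14 and 0.16, against 0.003 and 0.011 over all genes. Csf2ra, the ligand-binding chain of the GM-CSF receptor, had signals of 14.32 to 15.41 on all arrays, and Csf2rb, its signalling chain, 15.55 to 16.11. By the largest difference, Il5 was named in DCOld against DCYoung (-1.44, SE 0.367, adjusted p = 0.197, limma), though it was above background on 4 arrays only, and Kitl, which encodes stem cell factor, in DCOld-LP against DCOld (1.92, SE 0.486, adjusted p = 0.233, limma), though it was above background on 1 of 3 DCOld arrays and 2 of 3 DCOld-LP arrays. Cish, a STAT5 target that GM-CSF induces, was chosen after its values were seen. It read 13.26, 13.38 and 13.23 in DCYoung, 12.87, 12.94 and 12.77 in DCDysbiotic, 12.76, 12.76 and 12.34 in DCOld and 13.14, 13.28 and 13.73 in DCOld-LP. DCOld was below DCYoung by 0.67 (SE 0.227, adjusted p = 0.48, limma), which was called within the first slide (-0.56, adjusted p = 0.0226, limma). That was the only call of Cish among 24 alternative settings in this comparison. DCOld-LP exceeded DCOld by 0.76 (SE 0.227, adjusted p = 0.391, limma), which was called in 0 of 24.

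**Figure D3:**
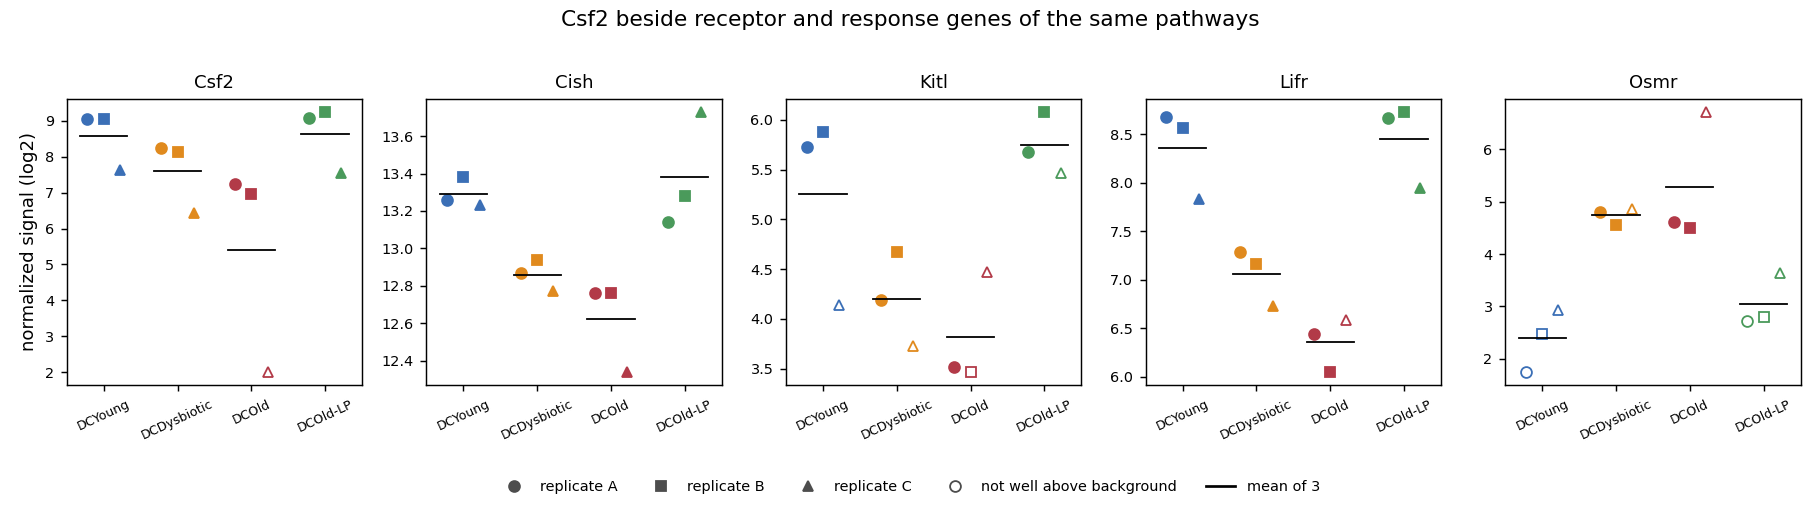
Normalized signal (log2, vertical axis) of Csf2 and of Cish, Kitl, Lifr and Osmr on each array, by group. Filled symbols are well above background, open symbols are not, and bars are means of 3 arrays. Lifr lay between 6.05 and 6.58 in DCOld and between 7.83 and 8.73 in DCYoung and DCOld-LP, and Osmr was above background in DCDysbiotic and DCOld A and B only.

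Csf1, the gene of M-CSF, gave different answers at its 3 features. At the brightest (A_51_P195506) the A and B arrays of all groups read 11.41 to 11.63 and the C arrays 12.36 to 12.65, and the group means differed by 0.08 or less. At A_55_P2169669 the signals were 9.19, 9.04 and 9.02 in DCYoung, 9.69, 9.38 and 9.83 in DCDysbiotic, 9.56, 9.78 and 9.53 in DCOld, and 8.78, 8.91 and 9.37 in DCOld-LP. Both DCDysbiotic and DCOld lay above DCYoung there without overlap, and DCOld-LP lay below DCOld without overlap. DCOld exceeded DCYoung by 0.54 (SE 0.229, unadjusted p = 0.0403, adjusted p = 0.763, limma), DCDysbiotic exceeded DCYoung by 0.55 (SE 0.229, unadjusted p = 0.0375, adjusted p = 1, limma), and DCOld-LP was 0.60 below DCOld (SE 0.229, unadjusted p = 0.0251, adjusted p = 0.692, limma). A_55_P2017914 had differences of 0.34, 0.42 and -0.47 (SE 0.304) in the same comparisons. These 2 dimmer features carry the accession of another Csf1 transcript than the brightest. Within the first slide both were called lower in DCOld-LP than in DCOld, by 0.82 (SE 0.149, adjusted p = 0.0266, limma) and 0.74 (SE 0.142, adjusted p = 0.0313, limma), whereas the brightest feature differed by 0.13 (SE 0.0834, adjusted p = 0.441, limma).

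**Figure D4:**
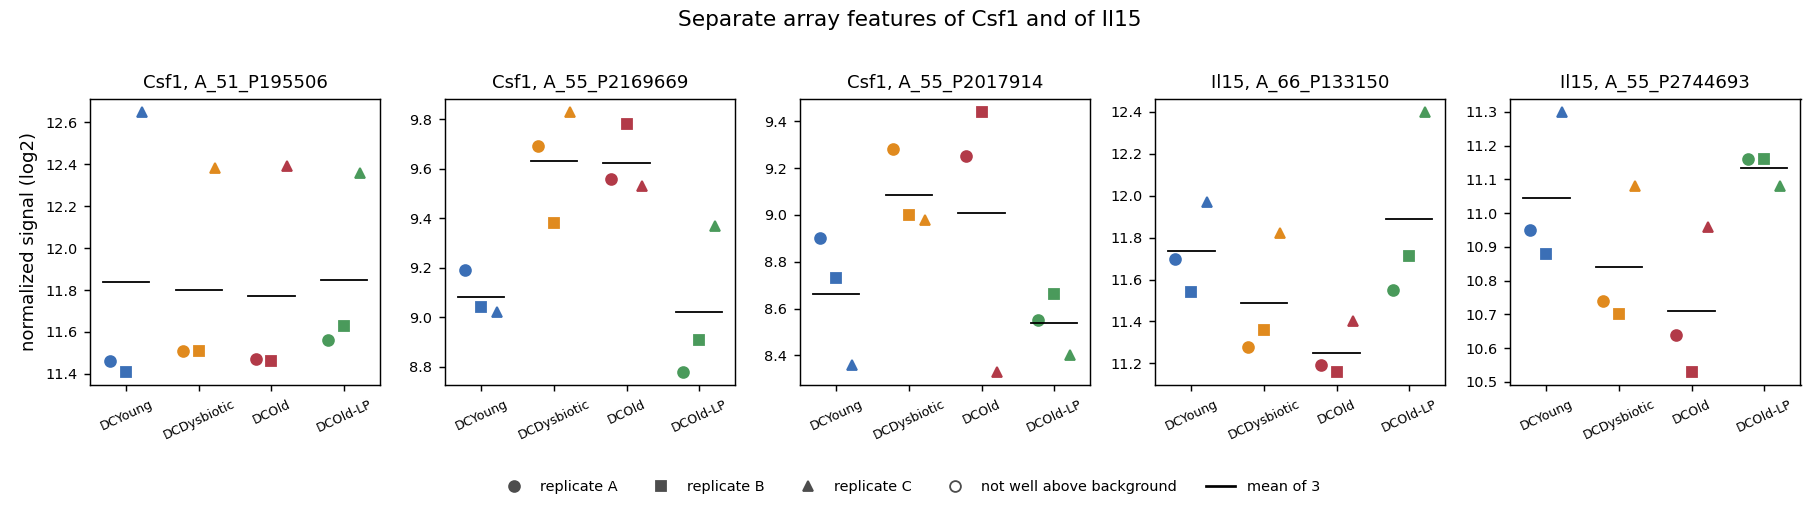
Normalized signal (log2, vertical axis) of the 3 features of Csf1 and the 2 features of Il15 on each array, by group. Filled symbols are well above background and bars are means of 3 arrays. The brightest Csf1 feature had near-equal group means, and DCOld-LP lay below DCOld without overlap at A_55_P2169669.

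Csf3, the gene of G-CSF, was not well above background on any of the 12 arrays. Its signals were 1.66 to 1.99 on 11 arrays and 4.61 on DCOld C, which is below the dimmest level called well above background on that array (6.65), so none of its differences is a measured one.

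Il6 was measured well above background on every array. Its signals were 10.75, 10.60 and 11.03 in DCYoung, 10.84, 10.62 and 11.17 in DCDysbiotic, 10.45, 10.15 and 12.89 in DCOld, and 11.35, 11.44 and 11.47 in DCOld-LP. DCOld A and B were the lowest of the 12 arrays at this feature, and DCOld C was the highest. The second feature did not share this order. DCYoung C and DCDysbiotic C were the lowest there (8.13 and 8.36), DCOld-LP A and B the highest (10.42 and 10.43), and DCOld C read 9.72. DCOld differed from DCYoung by -0.30, -0.45 and 1.87 for A, B and C, and by 0.37 on average (SE 0.588, adjusted p = 1, limma). DCOld-LP differed from DCOld by 0.90, 1.30 and -1.43, and by 0.26 on average (SE 0.588, adjusted p = 1, limma). DCOld-LP exceeded DCYoung in 3 of 3 letters without overlap, by 0.63 on average (SE 0.588, adjusted p = 1, limma). With the slide as a block this difference was 0.32 (adjusted p = 0.971, limma). At the second feature the 2 groups overlapped, with a difference of 0.86 (SE 0.56). DCDysbiotic and DCYoung differed by 0.08 (SE 0.588, adjusted p = 1, limma). Within the first slide Il6 was 2.14-fold higher in DCOld-LP than in DCOld (SE of the log2 difference 0.145, adjusted p = 0.00933, limma), and its second feature was 2.31-fold higher (log2 1.21, SE 0.196, adjusted p = 0.0188, limma). In DCOld against DCYoung the first slide gave -0.38 (SE 0.145, adjusted p = 0.205, limma), which has the opposite sign to the fit on all arrays.

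Lif passed the background threshold on arrays A and B of each group and on no C array. There it read 3.86 and 4.35 in DCYoung, 4.06 and 4.40 in DCDysbiotic, 3.78 and 3.73 in DCOld, and 4.65 and 4.56 in DCOld-LP. The difference of DCOld-LP from DCOld within the first slide was 0.85 (SE 0.198, adjusted p = 0.0595, limma) and did not pass the test. Osm, which macrophages and DCs make after LPS, read 11.33 to 11.60 on the A and B arrays of all groups, 11.98 to 12.61 on 3 C arrays and 13.59 on DCOld C. The group differences of Osm on the first slide were 0.08 or less (SE 0.11) at this feature. At its second, dimmer feature DCDysbiotic differed from DCYoung by -0.30 and -0.49 for A and B. DCOld differed from DCYoung there by -0.21 and -0.12, and DCOld-LP from DCOld by 0.45 and -0.14. None of these was called on the first slide.

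Of the receptors and signalling genes of the IL-6 family, 17 were measured, and 1 was called on all arrays, Lifr, which encodes the LIF receptor chain that pairs with gp130. Lifr read 8.68, 8.56 and 7.83 in DCYoung, 7.28, 7.16 and 6.73 in DCDysbiotic, 6.44, 6.05 and 6.58 in DCOld, and 8.67, 8.73 and 7.94 in DCOld-LP. DCOld and DCDysbiotic lay below both other groups without overlap, and DCOld C was not well above background. Lifr fell by 2.00 from DCYoung to DCOld (SE 0.322, adjusted p = 0.0234, limma) and was 2.09 higher in DCOld-LP than in DCOld (SE 0.322, adjusted p = 0.0304, limma). DCDysbiotic was 1.29 below DCYoung (SE 0.322, adjusted p = 0.271, limma), and within the first slide this was called (-1.40, adjusted p = 0.00634, limma). The first call was kept in 16 of 24 alternative settings and the second in 13, with differences of -2.37 to -1.40 and of 1.38 to 2.45. Without DCYoung A or B, DCOld A or B, or DCDysbiotic B neither was called, and without DCDysbiotic A or DCOld-LP A or B the second was not. With A and B averaged to 1 replicate neither Lifr nor any other feature on the array was called, and Lifr differed by -1.81 and 1.90.

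Osmr, the oncostatin M receptor chain, was chosen after its values were seen. It was well above background on A and B of DCDysbiotic (4.81 and 4.55) and of DCOld (4.62 and 4.49) and on no array of DCYoung or DCOld-LP. It was at least 2.27-fold higher in DCOld than in DCYoung, where the dim group is set at the dimmest level called above background on each array, with group means of 5.27 and 2.39 and an adjusted p of 0.0625 (limma) that did not pass the test. The DCOld mean includes its C array, which was not above background, and for A and B alone the log2 bounds were 1.15 and 1.11. Osmr was called in this comparison in 4 of 23 alternative settings, and the log2 difference was 0.60 as a mean over its features, 0.87 after normexp and 0.89 in the authors' log2 values, each below the bound and none called. With the letter as a block, Osmr was called in this comparison (adjusted p = 0.0103, limma), in DCDysbiotic against DCYoung (adjusted p = 0.0386, limma) and in DCOld-LP against DCOld (adjusted p = 0.0367, limma). The bound was 1.57-fold for DCDysbiotic over DCYoung and 2.26-fold for DCOld over DCOld-LP. Il6ra read 10.43 to 12.25 and Il6st, the gp130 gene, 9.74 to 10.57, with 1 missing reading on DCOld C. Over the 17 genes the median difference was -0.04 in DCOld against DCYoung and -0.06 in DCOld-LP against DCOld.

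Il10 was dim on most arrays. Its signals were 3.76, 3.95 and 4.65 in DCYoung, 4.56, 4.47 and 4.25 in DCDysbiotic, 4.89, 4.21 and 9.05 in DCOld, and 4.45, 4.41 and 6.86 in DCOld-LP, and the C arrays of DCYoung and DCDysbiotic were not well above background. The third slide held both high values. DCOld exceeded DCYoung in 3 of 3 letters, by 1.13 and 0.26 for A and B and by at least 3.62 for C, where DCYoung is set at the dimmest level above background. The fit to all arrays, with the reading below background as it stands, gave 1.93 (SE 1.11, adjusted p = 1, limma). The C pair lies across the third and second slides, and with the slide as a block the difference was 0.87 (adjusted p = 0.553, limma). On the first slide the difference was 0.70 (SE 0.224, adjusted p = 0.134, limma), and that of DCDysbiotic from DCYoung was 0.66 (SE 0.224, adjusted p = 0.176, limma). DCOld-LP differed from DCOld by -0.45, 0.20 and -2.19 for A, B and C. Il10ra, the ligand-binding receptor chain, read 12.52 to 12.86 on the A and B arrays and 10.02 to 11.10 on the C arrays, and its group means differed by 0.33 or less from DCYoung (SE 0.875). Its second feature was not lower on C, with 9.50 to 10.30 on the A and B arrays and 10.12 to 10.36 on the C arrays. The group means differed there by 0.34 or less from DCYoung (SE 0.26). None of 15 other genes of the IL-10 family, its receptor and its response was called on all arrays. Of the 15, 4 were higher in DCOld than in DCYoung and 13 higher in DCOld-LP than in DCOld. The medians were -0.20 and 0.27, against 0.003 and 0.011 over all genes. Both comparisons use the same DCOld arrays, so they are not separate results. Il22, above background on 7 arrays, had the largest difference in both (-1.41, SE 0.676, adjusted p = 0.893 and 1.46, SE 0.676, adjusted p = 0.885, limma).

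Il15 had the same order of groups at both features, with DCOld lowest. At A_66_P133150 the signals were 11.70, 11.54 and 11.97 in DCYoung, 11.28, 11.36 and 11.82 in DCDysbiotic, 11.19, 11.16 and 11.40 in DCOld, and 11.55, 11.71 and 12.40 in DCOld-LP. DCOld was below DCYoung and below DCOld-LP without overlap and below both in 3 of 3 letters. The differences were -0.49 (SE 0.275, adjusted p = 1, limma) for DCOld against DCYoung and 0.63 (SE 0.275, unadjusted p = 0.0437, adjusted p = 0.824, limma) for DCOld-LP against DCOld. The second feature (A_55_P2744693) gave -0.33 and 0.43 (SE 0.22). On the first slide the second feature was called higher in DCOld-LP than in DCOld (0.58, SE 0.0901, adjusted p = 0.0162, limma), and the first was not (0.45, SE 0.107, adjusted p = 0.0616, limma). DCOld-LP and DCYoung differed by 0.15 and 0.09 at the 2 features.

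None of the 7 genes of the IL-15 receptor and the common gamma chain cytokines was called on all arrays, with medians of 0.05 in DCOld against DCYoung and -0.03 in DCOld-LP against DCOld. Il7, above background on 9 arrays, had the largest difference in both (-2.54, SE 0.861, adjusted p = 0.477 and 1.81, SE 0.861, adjusted p = 0.905, limma). Il2rb, the signalling chain that IL-15 shares with IL-2, was chosen after its values were seen. It read 11.61, 11.53 and 13.06 in DCYoung, 10.86, 11.06 and 12.59 in DCDysbiotic, 10.52, 10.34 and 10.84 in DCOld, and 11.58, 11.56 and 13.56 in DCOld-LP. DCOld lay below every other group without overlap. DCOld-LP exceeded DCOld by 1.67 (SE 0.655, adjusted p = 0.727, limma), which was called with the letter as a block (adjusted p = 0.0438, limma) and within the first slide (1.14, SE 0.115, adjusted p = 0.00361, limma). Il2rb is also a gene of T and NK cells, and the summed T cell markers above were also lowest in DCOld. Their part in this result was not tested.

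Ifnb1 was well above background on 4 arrays, DCYoung B, DCDysbiotic B and DCOld-LP A and B, with 3.28 to 3.54 there, and on no array of DCOld. Its group differences were between -0.75 and 0.74 (SE 0.846), and none was called under any setting tried. Of 18 measured genes that interferon induces, 4 were higher in DCOld than in DCYoung and 13 higher in DCOld-LP than in DCOld, with medians of -0.32 and 0.38 against 0.003 and 0.011 over all genes. None was called on all arrays, and 4 had an unadjusted p of at most 0.05 in each comparison, all toward lower levels in DCOld. Of all features 6.05% and 5.87% reached that p in these comparisons, in either direction. Both comparisons use the same DCOld arrays, so they are not separate results. Ifit3, an antiviral protein gene, was the one with the largest difference in DCOld against DCYoung (-1.07, SE 0.266, adjusted p = 0.181, limma), called with the letter as a block (adjusted p = 0.0446, limma). Cmpk2, a mitochondrial nucleotide kinase gene, was 1.05 lower in DCOld than in DCYoung and 1.18 higher in DCOld-LP than in DCOld, and was called in both with the letter as a block but not without it (adjusted p = 0.0178 and 0.0144, limma). Ifit2 was that in DCOld-LP against DCOld (1.32, SE 0.364, adjusted p = 0.307, limma). On the first slide Cmpk2, Ifit3 and Rsad2 were called lower in DCOld than in DCYoung, and Cmpk2 and Ifit3 higher in DCOld-LP than in DCOld. These were 3 and 2 of the 18 genes, where 9.17% and 8.24% of all features were called on that slide, in either direction. Of 14 genes of the interferon receptor and its regulators, none was called on all arrays. Ifnar2, a chain of the receptor, was 0.59 higher in DCOld than in DCYoung (SE 0.219, adjusted p = 0.585, limma), and Ifna1 had the largest difference in DCOld-LP against DCOld (-0.83, SE 0.728, adjusted p = 1, limma).

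The genes that sense LPS and those that control cytokine mRNA act before these cytokines are made. None of 12 genes of LPS sensing and none of 8 genes that control cytokine mRNA stability was called on all arrays. In DCOld against DCYoung 4 of 12 and 4 of 8 were higher, with medians of -0.21 and 0.04. In DCOld-LP against DCOld 7 of 12 and 5 of 8 were higher, with medians of 0.04 and 0.14. Over all genes the medians were 0.003 and 0.011 in these comparisons, which share the DCOld arrays. The largest differences were those of Ticam2 (-0.93, SE 1.26), Tlr4 (0.86, SE 1.85) and Zc3h12a (1.05 and -1.09, SE 1.26), each with an adjusted p of 1 (limma). Ticam2 and Zc3h12a were above background on 8 arrays and Tlr4 on 10. Tlr4 read 9.70 to 9.93 on the A and B arrays and from 4.06 up to 6.6 on the C arrays. On the first slide Cd14, the LPS co-receptor, was called higher in DCOld than in DCYoung (0.73, SE 0.106, adjusted p = 0.0116, limma) and in DCDysbiotic than in DCYoung (0.72, SE 0.106, adjusted p = 0.0174, limma). Traf6, a signalling adaptor of this pathway, was called lower in DCOld than in DCYoung (-0.91, SE 0.185, adjusted p = 0.0352, limma) and higher in DCOld-LP than in DCOld (1.01, SE 0.185, adjusted p = 0.0278, limma). The shares of all features called on that slide were 9.17% in DCOld against DCYoung, 6.14% in DCDysbiotic against DCYoung and 8.24% in DCOld-LP against DCOld.

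The genes whose pattern was most like that of Il6 over the 12 arrays, after the mean of each letter was taken out, were Tiparp, Maip1 and Rgs1 (Pearson r = 0.979, 0.974 and 0.972 among 10701 genes above background on all arrays). For Il10 they were Bfsp2, Bank1 and Dao (r = 0.971, 0.964 and 0.961 among 10702). With the letter means kept, r was 0.977, 0.807 and 0.524 with Il6 and 0.959, 0.961 and 0.959 with Il10, in the same order. Among the members, with the letter means taken out, Osm and Il10 had r = 0.9, Csf2 and Il15 r = 0.868, and Csf2 and Osm r = -0.789. With the letter means kept these were 0.895, 0.141 and -0.854, so Csf2 and Il15 were close only after the letters were taken out. These are descriptions, the arrays share slides, and DCOld C lies at the end of the range for Il6, Il10, Osm and Csf2, where the reading of Csf2 is below background. Il10 was below background on DCYoung C and DCDysbiotic C.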

How the data were processed

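Gene expression was measured on 12 one-colour Agilent mouse arrays (4 groups of 3, on 3 slides). Per the file headers, the authors' Feature Extraction software (version 12.1.1.1, while the labels name 10.5) gave a background-subtracted, spatially detrended intensity per spot, not yet normalized across arrays. The authors also deposited quantile normalized log2 values, used as an alternative, whose choice of probes is not given in the sources used here. Control spots were left out, 1068 readings marked as non-uniform or population outliers were set to missing, log2 intensity was quantile normalized, and repeated spots were averaged to 56605 features. Features were named through their accessions with a RefSeq gene table (GRCm38.p6, while the array design is on mm9), which matched 35405 features to 24232 symbols. Files were read with the R package data.table (version 1.17.8), and limma 3.58.1 under R 4.3.3 fitted 4 group means to all arrays, with two-sided p adjusted by Benjamini-Hochberg over all features. With 3 arrays against 3 an exact permutation test cannot go below 0.1, so none was used. The steps were tested on simulated data.

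The 10 genes and the lists of pathway and marker genes (186 genes, of which 4 had no feature) were chosen with earlier results of these data known. All features of the 10 genes were tested and counted, and single readings are given mainly for the brightest. From each pathway list the genes called were named, or else the gene with the largest difference in DCOld against DCYoung and in DCOld-LP against DCOld, and genes named beyond that rule were chosen after their values were seen. For Il6, Il10 and any called member the 3 genes of most similar pattern were named.

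Deviations from the group means of arrays with the same letter correlated at 0.415 to 0.711 between groups, so the letters were taken to pair the arrays. A and B also correlated with each other (0.449 to 0.57), and C correlated negatively with both (-0.659 to -0.466), so the pairing sets C apart from A and B. The precision is limited by the number of arrays. Alternatives were a shift by the 75th percentile, normexp with an offset of 50 on the median signal, the authors' log2 table, a filter on dim features, means over the features of a gene, letter and slide as blocks, fits to the compared groups alone, an intensity trend, outlier spots kept, the first slide alone and each array left out. Averaging A and B to 1 replicate was added after the data were seen. Promoter windows are from RefSeq (250 bases before to 50 after the start), and 5 of the 10 genes had one. Protein sequences were not used here.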

Additional observations from a re-analysis of the deposited data

How the results depend on the processing

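With all 12 arrays, 0 member features were called in each of the 4 comparisons, and this was so in 44 of 48 counts under the other settings and in all 48 counts with 1 array left out. The exceptions were 1 feature in DCOld-LP against DCOld with the slide as a block (Csf2), and on the first slide alone 1 in DCOld against DCYoung (Csf2), 1 in DCDysbiotic against DCYoung (Csf2) and 6 in DCOld-LP against DCOld. With the letter as a replicate block, the paired fit, the count was 0 in each of the 4 comparisons, and the counts over all features were 1233, 557, 935 and 1 where the fit without it gave 351, 195, 197 and 0. The block changed no call among the members, and the calls it changed in the pathway lists are given beside those genes. With A and B averaged to 1 replicate, 0 features of the whole array were called in each comparison, with an unadjusted p of at most 0.05 for 1438, 844, 1303 and 233.

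Single members were read as log2 differences at their brightest feature, and none of those that changed sign was called. Of 464 values under the other settings 42 changed sign, 35 of them by less than the standard error. The other 7 were, with the slide as a block, Ifnb1 in DCOld against DCYoung (-0.87) and in DCOld-LP against DCYoung (-0.21), and on the first slide alone Il6 (-0.38), Lif (-0.35) and Csf3 (-0.00924) in DCOld against DCYoung and Lif (0.85) and Csf3 (0.16) in DCOld-LP against DCOld. Of 480 values with 1 array left out 52 changed sign, 42 of them by less than the standard error. The ranges of the others in DCOld against DCYoung were -0.49 to 0.88 for Il6, -0.17 to 0.90 for Osm and -0.0612 to 1.40 for Csf3, and in DCOld-LP against DCOld -0.64 to 0.43 for Osm, -1.73 to 0.69 for Il10, -1.28 to 0.18 for Csf3, -0.83 to 0.23 for Lif and -0.27 to 1.41 for Ifnb1. In DCOld-LP against DCYoung they were -0.37 to 0.69 for Lif and -0.19 to 1.23 for Ifnb1. These 10 changes of sign came without DCOld C or, for Lif and Ifnb1, without DCOld-LP C. Csf2 kept its sign in DCOld against DCYoung (-4.09 to -1.47) and in DCOld-LP against DCOld (1.53 to 4.14) with any 1 array left out. Csf3 was below background on all arrays, so its values above are differences between readings that were not measured, and Lif and Ifnb1 were below it on all C arrays.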
